A study of Homo sapiens with 2 samples.

Results

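The Reprimo genes RPRM and RPRML were examined in SK-NEP-1 cells treated with a histone deacetylase inhibitor. They are 2 of the 1741 gene symbols that the rows of the study's mRNA lists used here pair with array probes, and each is read by 1 probe. They were picked by symbol from lists of probes that differed between the treated and the control array, with their rise already known, so their differences are given as a description. The SK-NEP-1 line, an established human culture, is labelled as a Wilms tumor of the kidney. In the LBH589 sample the cells received 100 nM LBH589 (panobinostat, which blocks histone deacetylases, enzymes that take acetyl groups off histones), and in the DMSO sample they received an equal volume of the solvent. Both cultures were harvested at 24 h. After ribosomal RNA was removed, the RNA of each culture was amplified, labeled with Cy3 and hybridized to 1 Arraystar Human LncRNA array, a platform with probes for mRNAs and long noncoding RNAs (lncRNAs). With 1 array per condition no difference here has a replicate check, no test was made, and treatment cannot be told apart from culture, RNA preparation or labeling. The study also reports RPRM by real-time PCR and western blot in treated SK-NEP-1 cells, and those measurements were not examined here.

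Reprimo, the protein encoded by RPRM, is a small glycosylated cytoplasmic protein. When overexpressed it holds cells in the G2 phase of the cell cycle, in which it acts against the cyclin B and CDK1 complex that starts mitosis. The RPRM promoter lies in a CpG-rich region, is often methylated in tumors, and the gene is then silent. RPRML (Reprimo-like) is a paralog that has been studied less. Histone acetylation marks open chromatin, and genes that are silent in a tumor cell can become transcribed after deacetylase inhibition.

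The sequences show what was read on the array and how the starts of the genes resemble each other. RPRM is listed with transcript ENST00000325926 of 1471 bases on the minus strand of chromosome 2 (hg19 chr2:154333852-154335322). Its listed length equals its span on the genome, as for an unspliced transcript. RPRML is listed with NM_203400 of 1110 bases on the minus strand of chromosome 17 (hg19 chr17:45055522-45056614), a span of 1093 bases. Both probes are 60 bases long, and the exon or untranslated region they lie in was not determined here. To show how long a run of bases the 2 probes share, 30 bases of each are given. These are bases 9 to 38 of the RPRM probe and bases 1 to 30 of the RPRML probe. The longest run that the full probes share is in capitals, marked once in each.
RPRM probe: gccacaaaagtgcTCTTGacatccgtgaca
RPRML probe: TCTTGcgtttggaaagaaatcttgtaataa
The shared run was only 5 bases, and its letters occur again, in lower case, in the RPRML stretch shown. Against the other 3955 listed probes the longest shared run was 12 bases for RPRM, with 2 probes, and 14 bases for RPRML, with 1 probe. Probes were compared with probes only, not with transcripts, so whether 1 probe could read both genes was not determined. The GC content was 41.7% for the RPRM probe and 45% for the RPRML probe. The RPRML probe holds AATAAA, the letters of the common polyadenylation signal, from base 26.

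Both members were found by symbol among RefSeq promoters (GRCh38.p14). The 250 bases before each start are printed 5′ to 3′ on the gene's strand, with each CpG, the dinucleotide at which DNA is methylated, in capitals, because both genes moved the same way and RPRM is known for promoter methylation. The RPRM promoter is chr2:153478763-153479012 and the RPRML promoter is chr17:46979254-46979503, both on the minus strand.
RPRM promoter: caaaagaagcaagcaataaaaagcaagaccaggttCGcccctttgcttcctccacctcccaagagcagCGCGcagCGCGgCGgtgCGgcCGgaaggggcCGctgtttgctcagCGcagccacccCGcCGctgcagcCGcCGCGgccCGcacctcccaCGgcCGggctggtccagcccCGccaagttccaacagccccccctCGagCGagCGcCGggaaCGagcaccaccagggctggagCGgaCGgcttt
RPRML promoter: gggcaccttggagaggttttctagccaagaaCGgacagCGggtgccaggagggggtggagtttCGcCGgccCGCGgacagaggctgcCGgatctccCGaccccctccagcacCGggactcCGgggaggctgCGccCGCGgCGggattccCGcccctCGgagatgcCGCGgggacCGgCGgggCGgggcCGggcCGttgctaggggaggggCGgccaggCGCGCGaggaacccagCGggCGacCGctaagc
The RPRM promoter held 26 CpGs and the RPRML promoter held 30. The median was 11 over 35114 promoters of the same length and 16 over the 22197 promoters of protein-coding genes. As many CpGs as in RPRM were present in 19.6% of all promoters, and as many as in RPRML in 12.4%. Among protein-coding genes these shares were 24.9% and 15.6%. GC content was 69.6% for RPRM and 75.2% for RPRML, against a median of 58%. The ratio of CpGs found to those that the base composition alone would give was 0.875 for RPRM and 0.865 for RPRML, against a median of 0.558 over all promoters and 0.711 over those of protein-coding genes. Both starts were therefore CpG-rich by each measure, but many other promoters were as rich.

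**Figure D1:**
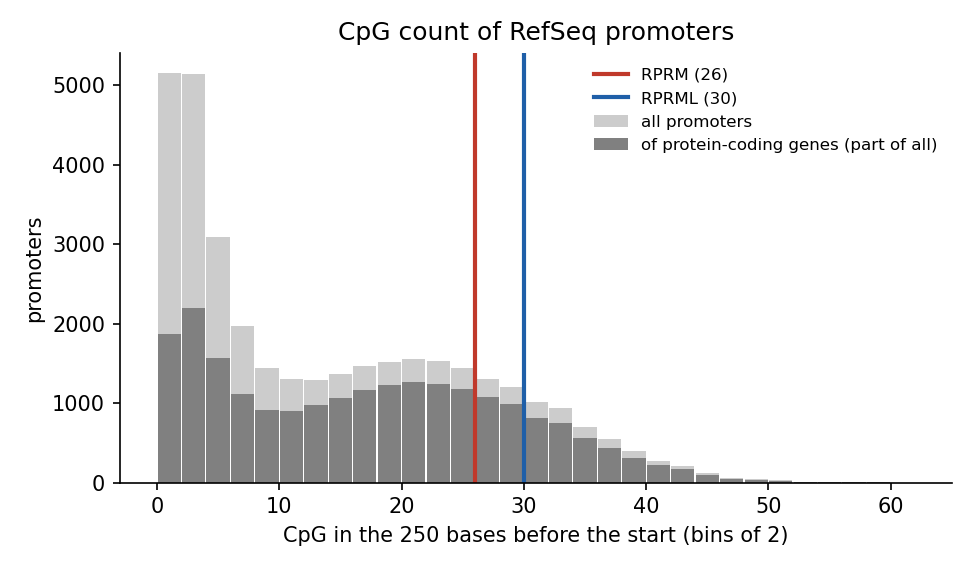
Number of promoters (vertical axis) by the number of CpGs in the 250 bases before the start (horizontal axis, bins of 2), for all RefSeq promoters in light grey and those of protein-coding genes, a part of them, in dark grey. The lines mark RPRM at 26 and RPRML at 30, both in the upper part of the distribution and to the right of the medians of 11 and 16.

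Short motifs were searched on both strands of these windows. GGGCGG, the core letters bound by SP1 family factors, was not in the RPRM window and occurred 3 times in RPRML, 102, 71 and 43 bases before the start. At least 1 GGGCGG was present in 42.6% of all promoters, and 3 or more were present in 13.9%. The CCAAT motif and the TATA box letters TATAAA were in neither window. Among promoters of protein-coding genes, 32.7% held the CCAAT motif and 9.01% the TATA box letters. These windows thus differed in GGGCGG and shared no run longer than 8 bases. DNA methylation, histone marks and factor binding were not measured in these samples.

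RPRM passed from a signal not well above background on the DMSO array to a clear signal on the LBH589 array. Its processed signal, the spot brightness after subtraction of background, was 5.44 ± 4.30 with DMSO and 1716 ± 172 with LBH589 (spot error given by the scanner software, 1 spot per array). The DMSO spot was not well above background by the software's test, and its error was 78.9% of its signal. Another call of the software did mark it as positive and significant. The LBH589 spot was well above background. In raw pixels, the median of the DMSO spot was 71 against 35 in its surroundings, and that of the LBH589 spot was 1687 against 29. RPRM was thus low with DMSO and high with LBH589, with no overlap of the error ranges.

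RPRML rose from a weak signal. Its processed signal was 26.8 ± 5.03 with DMSO and 941 ± 94.1 with LBH589 (spot error, 1 spot per array). The DMSO spot was called well above background but was only 1.26 times the lowest signal with that call on the array, and its error was 18.8% of its signal. Median pixels were 91 against 35 in the surroundings with DMSO and 1016 against 30 with LBH589. RPRML was also low with DMSO and high with LBH589, and its error ranges did not overlap either.

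The RPRM and RPRML spots lay in separate parts of the array, and neither carried an outlier or saturation flag. The 6 spots around RPRM ranged from 4.25 to 1306 with DMSO and from 3.23 to 422 with LBH589. Those around RPRML ranged from 4.25 to 204 with DMSO and from 3.09 to 99.4 with LBH589. On the LBH589 array each Reprimo spot was thus brighter than every spot next to it.

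The array also carries 60 negative probes, each on 10 spots, which give the signal read where no transcript is expected. With DMSO the median of these 600 spots was 4.25 and their 95th percentile 53. The RPRM signal was higher than 62.5% of them and the RPRML signal than 88.5%. Of the 60 negative probes, 5 had a median above RPRML on that array, and 15% of the negative spots were called well above background. The call that RPRML was measured with DMSO is therefore near the limit of the array, and its DMSO signal was inside the range of the negative probes. With LBH589 the 95th percentile was 27.4 and the brightest negative spot 49.1. No negative spot reached RPRM or RPRML on the LBH589 array.

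**Figure D2:**
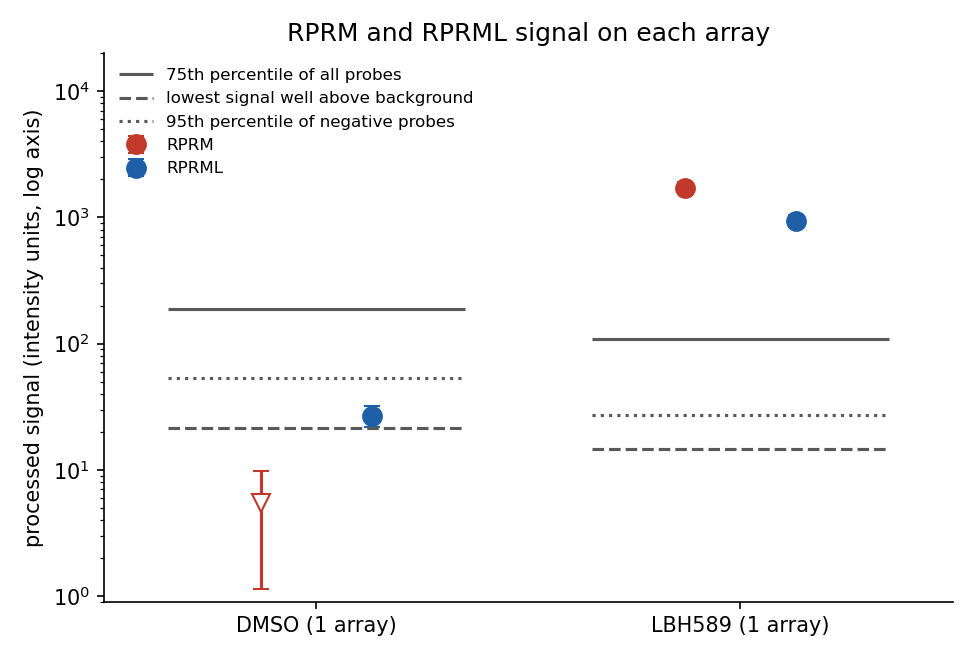
Processed signal of the RPRM (red) and RPRML (blue) spots on the DMSO and LBH589 arrays, on a log axis in intensity units, with bars for the spot error given by the scanner software (hidden by the points with LBH589). The open triangle is the RPRM spot that was not well above background, and the lines mark, for each array, the 75th percentile of all probes, the lowest signal with the well-above call and the 95th percentile of the negative probes, all 3 of which both genes pass with LBH589.

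The DMSO array was the brighter one, with a 75th percentile of 189 over its 58921 probes against 108 with LBH589, so each log2 signal was set against the 75th percentile of its own array. On this scale RPRM was at -5.12 with DMSO and 3.98 with LBH589, which is 15.8 times the 75th percentile. RPRML was at -2.81 and 3.12 on the same scale, and 8.68 times the 75th percentile with LBH589. Signals of different probes were not set against each other, since each probe has its own brightness.

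RPRM was at least 140-fold higher with LBH589, a lower bound of 7.13 on the log2 scale with a spot error of 0.144, or 127 to 155 in fold. That error is of the LBH589 spot alone and leaves out the DMSO side. The bound takes 21.3, the dimmest signal on the DMSO array that still had the well-above call, in place of RPRM's own. With its own DMSO signal in place of the bound the difference was 9.10, or 549-fold, a value that rests on a spot not well above background. RPRML was 61.0-fold higher, 5.93 ± 0.307 on the log2 scale (spot error), or 49.3 to 75.5 in fold. When DMSO signals under the 95th percentile of the negative probes were raised to it, a setting chosen after the values were seen, the differences became at least 56.4-fold for RPRM and at least 30.9-fold for RPRML. Both genes were thus much higher with LBH589 whichever background was used, while the size of the fold depended on it.

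Few probes on the array differed by as much. Of the 41574 probes that had the well-above call on 1 or both arrays, 12.3% were at least 2-fold higher with LBH589 and 10.2% at least 2-fold lower. At least 5-fold higher were 2.49%, and 1.65% were at least 5-fold lower. Both Reprimo probes were in the group at least 5-fold higher, and because they were chosen from lists made on this contrast nothing is read from that count. The median difference over the 41574 probes was -0.014 on the log2 scale, and 0.49 over the 1942 listed mRNA probes among them. By its bound, RPRM was 12th from the top of the 41574 and the 4th of the listed mRNA probes, and its true place may be higher or lower, since other probes are bounds too. RPRML was 28th and 9th.

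Like was also set beside like. Of the 2689 probes that, as RPRM, were well above background with LBH589 only, the median bound was 0.85 on the log2 scale and 287 were at least 5-fold higher. Of the 34619 probes that, as RPRML, were well above background on both arrays, the median difference was -0.035 and RPRML was 18th. The 12 probes at or above RPRM were 4 mRNA probes of 3 genes and 8 lncRNA probes. The mRNA genes were RPRM itself, DHRS2, a short-chain dehydrogenase, with 2 probes, and RFPL4A. At or above RPRML stood 28 probes, of which 9 read mRNAs of 8 genes, 18 read lncRNAs and 1 has no name here. DHRS2 was chosen for mention after its values were seen.

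**Figure D3:**
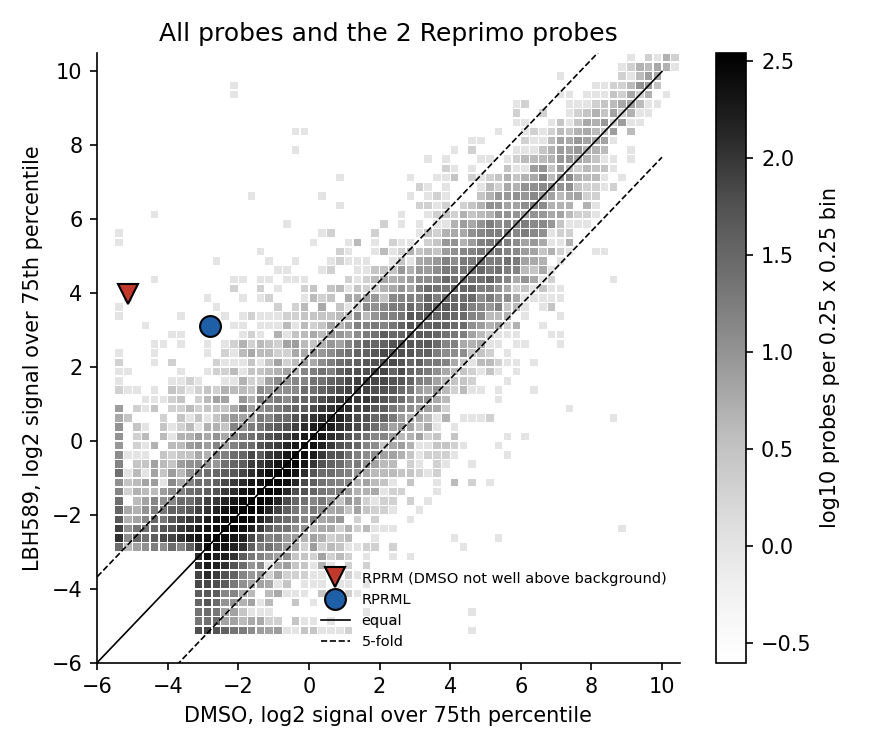
Log2 signal relative to the 75th percentile of the array with DMSO (horizontal) and with LBH589 (vertical) for the 41574 probes with the well-above call on 1 or both arrays, each grey square showing the number of probes in a bin of 0.25 by 0.25 on a log10 scale. The solid line marks equal values and the dashed lines 5-fold, and RPRM (red, with its own DMSO signal, which was not well above background) and RPRML (blue) lie far above the upper dashed line at low DMSO values.

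The spread between spots of the same array gives a measure of technical error within an array. For the 20 probes printed on 10 spots each, the SD between spots ranged from 0.034 to 0.36 (log2, median 0.072). Between the 2 arrays 17 of the 20 were within 2-fold, and LBH589 minus DMSO ranged from -2.64 to 1.60 on the log2 scale. The differences of 7.13 and 5.93 for RPRM and RPRML were larger, but both genes were picked for their difference on these arrays, so this is no support. Whether the 20 probes were as dim as the DMSO spots, with errors of 78.9% for RPRM and 18.8% for RPRML, was not examined. The spread between spots leaves out the variation between cultures, which was not measured.

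Listed probes within 1 Mb on hg19 were described as context for each gene. There were 8, and 4 were higher and 4 lower with LBH589. They are in the lists for their difference in this same contrast, and neighbours outside the listed rows have no name here, so the count says nothing of unlisted genes. Near RPRM there were 2. XLOC_001711, an intergenic lncRNA 211 kb downstream on the plus strand, went from 34.4 with DMSO to 6.21 with LBH589, at least 1.36-fold lower. GALNT13, which encodes an enzyme that starts O-linked glycosylation and begins 393 kb upstream, went from 6.40 to 20.2, at least 1.65-fold higher. The sign of the GALNT13 bound depended on the scaling. When the arrays were not scaled this lower bound was -0.08 on the log2 scale, which gives no direction. Its own signals as read, 6.40 and 20.2, were higher with LBH589 without scaling too. With their own dim signals in place of the bounds, XLOC_001711 was 3.18-fold lower and GALNT13 5.49-fold higher, so whether either passed 2-fold is not settled by these arrays. The same replacement gave 549-fold for RPRM.

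All 6 listed neighbours of RPRML lay upstream of it, between 471 and 992 kb away, and on the reported scaling all passed 2-fold, 3 higher and 3 lower. LRRC46, a leucine-rich repeat gene, went from 368 with DMSO to 1976 with LBH589, 9.34-fold higher. KPNB1, which encodes the nuclear import receptor importin beta, went from 555 to 38.3, 8.33-fold lower. CDK5RAP3, a gene for a protein that binds a CDK5 activator, went from 68.8 to 164, 4.15-fold higher. The other 3 had a side not well above background. MRPL45P2, a pseudogene transcript listed as an lncRNA, was at least 4.10-fold lower (104 to 11.9) and PRR15L was at least 2.69-fold lower (68.0 to 3.53). RP11-580I16.2, an lncRNA antisense to the aminopeptidase gene NPEPPS, was at least 3.40-fold higher (16.4 to 41.7). By bound or by own signal, none of the 8 listed neighbours had a difference as large as that of the Reprimo gene it lay near. Both Reprimo genes were picked with their rise known, so nothing is read from that order. Genes on both sides of 0 were interspersed upstream of RPRML.

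**Figure D4:**
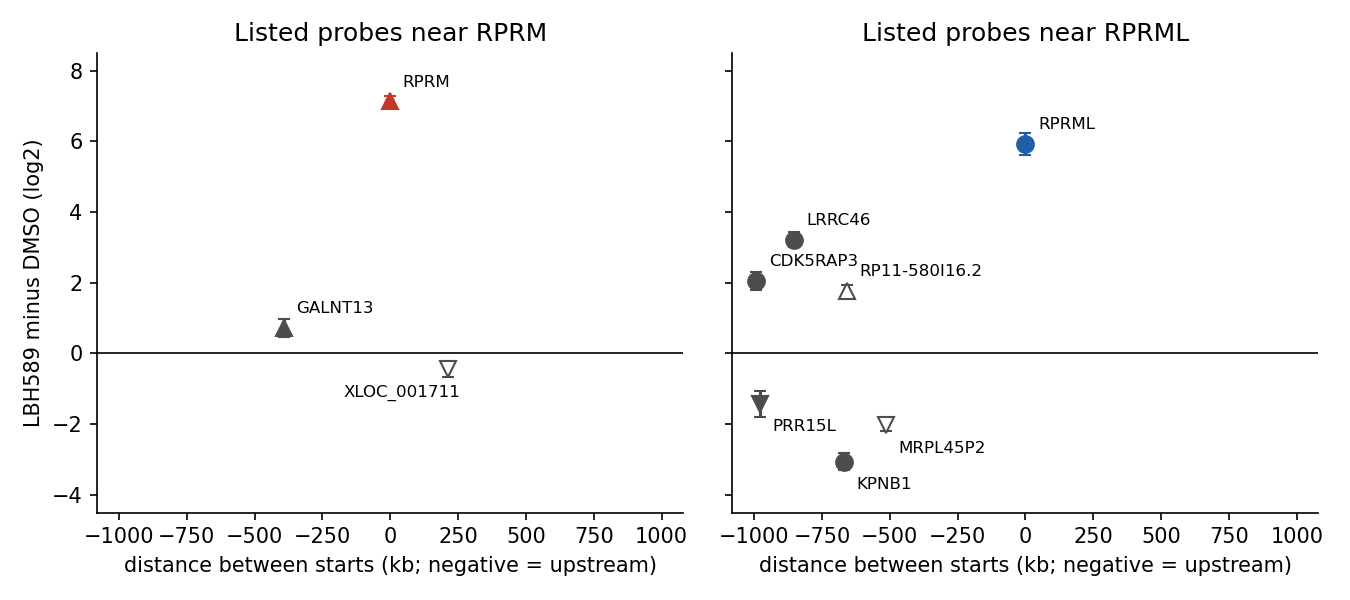
LBH589 minus DMSO on the log2 scale against the distance between transcript starts in kb, negative upstream of the gene, for RPRM (left, red) and RPRML (right, blue) and their listed neighbours within 1 Mb (grey). Filled symbols are mRNAs and open symbols lncRNAs. Circles are probes measured on both arrays, and triangles are bounds that point to the side on which the true value lies. Bars are spot errors, for a bound that of the side well above background alone. RPRM at 7.13 and RPRML at 5.93, both picked with their rise known, stand above all 8 neighbours, the highest of which is LRRC46 at 3.22.

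Reprimo is placed among the genes of cell cycle arrest, so the other genes of a list of cell cycle arrest and repair were set beside it. Of the 43 genes taken from it besides RPRM, 9 had a probe in the listed rows, and the rest have no name here. Of these 9, 2 were higher and 7 lower with LBH589, and their median was -2.31 (log2) against -0.014 over all 41574 probes. They are listed for their fold in this contrast, so neither the count nor the median describes the pathway.

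Among the genes that drive the steps at which arrest acts, CDC25A, a phosphatase that activates cyclin-dependent kinases, went from 341 with DMSO to 39.7 with LBH589, 4.94-fold lower. PLK1, a kinase of mitotic entry, went from 1646 to 231, 4.09-fold lower. Both of these drivers were thus lower with LBH589. The D cyclins of G1, CCND1 and CCND2, were 5.02-fold (3993 to 457) and 5.87-fold (1307 to 128) lower. WEE1, which inhibits CDK1 and so acts in the same direction as Reprimo, went from 173 to 7.87, at least 6.85-fold lower.

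Genes of stress and repair went both ways. SESN3, a sestrin that protects against oxidative stress, went from 36.8 with DMSO to 308 with LBH589, 14.6-fold higher. RRM2B, a damage-inducible subunit of ribonucleotide reductase, was at least 4.49-fold higher (6.31 to 55.0). SESN2 was 4.09-fold lower (1606 to 226), and 1 further member, not named here, was 5.33-fold lower (535 to 57.7). Within this list RPRM thus rose beside SESN3 and RRM2B. RPRM was picked with its rise known, so nothing is read from its larger difference.

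The listed mRNA probes nearest to each gene in their difference over the 2 arrays were also taken, 3 for each. For RPRM they were drawn from 409 listed mRNA probes well above background with LBH589 only. The bounds of the 3 rest on the same DMSO floor of 21.3 as that of RPRM, so their nearness reflects the LBH589 signals and does not measure likeness of change. RFPL4A went from 9.34 to 2295, at least 187-fold higher. IRGM, a GTPase of autophagy, went from 4.25 to 1178, at least 96.2-fold higher. ANKRD35 went from 14.2 to 1044, at least 85.2-fold higher. None of these 3 was well above background with DMSO, as the pool required.

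For RPRML the pool was 1198 listed mRNA probes well above background on both arrays. PGA3, a pepsinogen gene, went from 70.1 to 2126, 52.8-fold higher and 0.21 from RPRML on the log2 scale. ACTL6B, the neuronal actin-related subunit of a chromatin remodeling complex, went from 74.9 to 2027, 47.1-fold higher and 0.37 away. SPANXA2, a testis gene on chromosome X, went from 46.4 to 2372, 88.9-fold higher and 0.54 away. RFPL4A, PGA3 and SPANXA2 have near-identical copies in the genome, so their probes may read more than 1 gene. Likeness over 2 arrays is a single difference and was not tested.

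The labelled tissue could not be checked against its markers, since most have no named probe here and those that do are named for their difference in this contrast, which bears on their level with DMSO. Of 12 Wilms tumor and kidney progenitor genes 1 was listed, NCAM1, from the probes higher with LBH589, and it was not well above background with DMSO (20.1). Of 12 genes on a list for Ewing sarcoma, a tumor to which this line has also been assigned, 3 were listed with 4 probes, all from those lower with LBH589. All 4, of NKX2-2 (290), CAV1 (4203 and 77441) and KDSR (6873), were well above background with DMSO, as were 66.0% of all probes. These values say nothing for or against the label. Their part in the values of RPRM and RPRML was not tested.

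How far the differences depend on the way the signals were handled is shown for both genes. Across the settings tried, RPRM ranged from 5.00 to 9.10 on the log2 scale and RPRML from 3.96 to 6.13. The lowest value of each came from normexp, a background correction that here adds a constant of 50 to all signals, followed by quantile normalization. The table of processed values that the authors deposited held 2.36 with DMSO and 11.5 with LBH589 for RPRM, and 4.45 and 10.6 for RPRML, on the log2 scale. The rank of RPRM from the top lay between 6 and 22 and that of RPRML between 28 and 61. Both genes were higher with LBH589 under every setting.

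**Figure D5:**
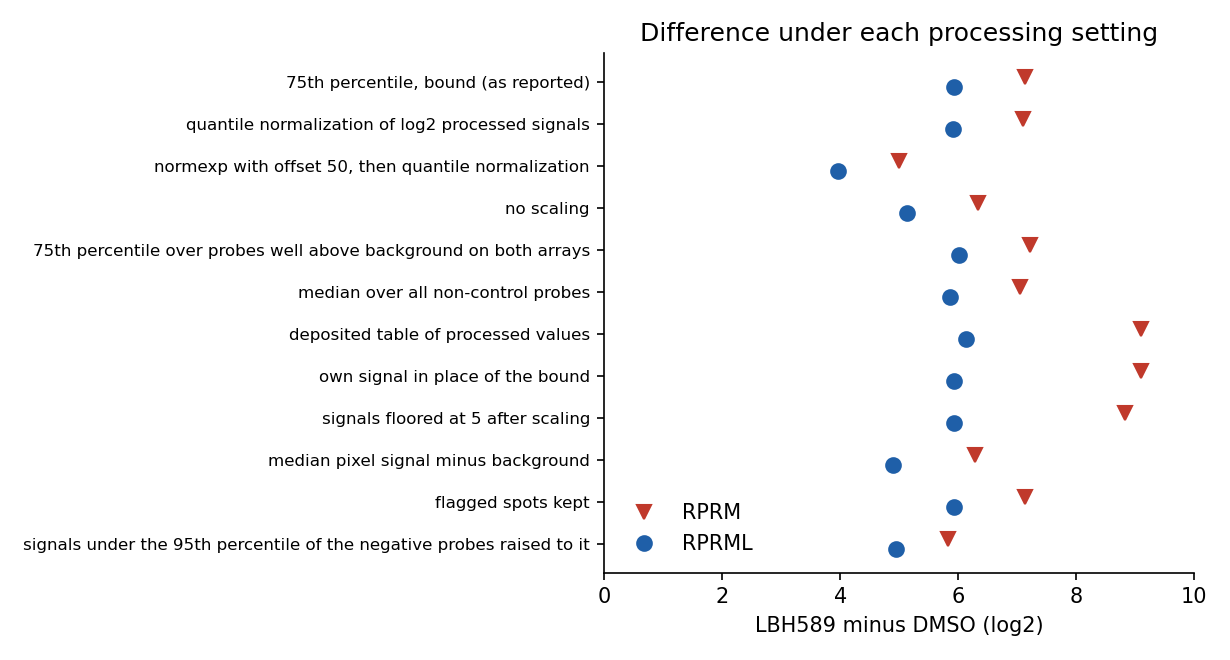
LBH589 minus DMSO on the log2 scale for RPRM (red triangles) and RPRML (blue circles) under the reported setting (top) and 11 alternatives, the last of which was chosen after the values were seen. RPRM lies between 5.00 and 9.10 and RPRML between 3.96 and 6.13, and RPRM is above RPRML in each setting.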

How the data were processed

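RNA of 1 DMSO-treated and 1 LBH589-treated SK-NEP-1 culture was read on 1 array each (61184 spots). The authors deposited scanner output of Agilent Feature Extraction, with version 11.0.1.1 in the file headers and 10.7.3.1 in the submitters' processing notes. It gives per spot an intensity (background-subtracted processed signal), its error, median pixel values and, as the only score, flags of 0 or 1. The authors also deposited a table of log2 values, normalized between the arrays by a method not given in the sources used here. It was used as an alternative. The fold change and p-value columns of the study's lists were not used.

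Control spots, the 60 negative probes and flagged spots (26 with DMSO, 37 with LBH589) were left out, and spots of a probe were averaged on the log2 scale. Each array was centred on its 75th percentile and LBH589 minus DMSO was taken. A probe counted when well above background on at least 1 array (66.0% of probes with DMSO, 63.3% with LBH589). For a dim side the lowest well-above signal of that array (21.3 with DMSO, 14.5 with LBH589) stood in, unless its own signal was higher. Errors combine the spot errors of the sides well above background, so the error of a bound is that of 1 spot. The number of arrays limits the precision. No spot of RPRM or RPRML was saturated.

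Names and hg19 positions came from the rows used of the study's lists (1002, 952, 1406 and 1363 rows). Listed starts count from 0, so 1 was added. Members and gene lists were chosen with earlier results of these data known. Named genes were the members, listed probes within 1 Mb, listed members of the arrest and repair list (1 gene of which is not reported here), the 3 nearest mRNA probes per gene and, after their values were seen, DHRS2. RefSeq promoters (GRCh38.p14) were matched by symbol. Alternatives were other scalings, background corrections, filters, floors and the deposited table. Normexp used median spot signals, since the mean signal column is not among those used here. The negative-probe floor was added after seeing the data. Calculations used Python 3.11.15, numpy 2.4.6, pandas 2.3.3 and limma 3.58.1 in R 4.3.3, and were tested on simulated data.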

Additional observations from a re-analysis of the deposited data

How the results depend on the processing

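RPRM and RPRML were higher with LBH589 under all 11 alternatives each. The RPRM difference (7.13 on the log2 scale) differed by less than its spot error under 4 of them. It was 5.00 with normexp and quantile normalization, 6.33 with no scaling, 9.10 from the deposited table and 9.10 with its own DMSO signal, 8.82 with signals floored at 5, 6.28 from median pixels minus background and 5.82 with the negative-probe floor, which was chosen after seeing the data. RPRML (5.93) differed by less than its spot error under 7, and was 3.96 with normexp, 5.13 with no scaling, 4.89 from median pixels and 4.95 with the negative-probe floor. Own signals and the floor at 5 could not change RPRML, since neither acts on its signals. Keeping flagged spots could move either gene only through the percentile, since their own spots were not flagged. The count of probes at least 5-fold higher (1035) was 406 with normexp, 477 with no scaling, 1687 with own signals, 647 from median pixels and 1948 with no filter, and stayed within 1.5 times under the other 8. The count at least 2-fold higher (5094) was 2474, 1802 and 9256 with normexp, no scaling and no filter, and stayed within 1.5 times under the other 10. With no scaling the median of all probes shifts by -0.81 on the log2 scale. That is the construction of the setting, since the LBH589 array was dimmer. The cause of the other changes was not tested. The neighbours (4 of 8 higher, 3 with no scaling) and the arrest and repair list (7 of 9 lower) kept their counts within 1.5 times under 6 alternatives each. With no scaling the lower bound of GALNT13 was -0.08, so it was not counted as higher, though that bound does not settle its direction. No replicate could be left out. No paired analysis was possible because each condition has 1 array. Weak signals with DMSO limit the fold of both genes.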
